A study of Mus musculus with 8 samples.

Results

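The nuclei described here were nuclei of mouse kidney selected on the transcripts of the thick ascending limb (TAL) of the loop of Henle and on claudin 10. A nucleus was taken when it held at least 2 unique molecular identifiers (UMIs, each standing for 1 captured transcript) of Slc12a1, at least 1 of Cldn10, none of Cldn16, Cldn19, Tmem207 or Nos1 and at most 1 of Slc12a3. After barcodes under 500 genes or 800 UMIs, or over 2% mitochondrial UMIs, had been removed, 81391 nuclei were left, of which 10145 (12.5%) met this rule, and they are called gated nuclei below. As a group, 3103 of them had at least 10 Slc12a1 UMIs and carried the other TAL markers, as the label of TAL nuclei with claudin 10 states, although 1353 of these (43.6%) had a single Cldn10 UMI and 309 also held at least 10 UMIs of proximal tubule genes. As a group, the data went against the label for the other 7042, which had fewer than 10 Slc12a1 UMIs and of which 5760 (81.8%) held at least 10 UMIs of 11 proximal tubule genes. Each comparison is therefore given for all gated nuclei and then for the 3103, called high-Slc12a1 nuclei. This boundary was chosen after the distribution of UMIs had been seen.

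The nuclei came from the kidneys of 8 male mice of a C57BL/6J background, 2 in each of 4 groups. Ctrl mice carried Bmal1lox/lox alleles of the clock gene Bmal1 (Arntl). cKOt littermates carried the same alleles together with the Pax8-rtTA and LC-1 transgenes, by which doxycycline switches on Cre recombinase in cells that use the Pax8 promoter, that is, in renal tubules and not in vessels, stroma or immune cells. Both genotypes had doxycycline (2 mg/ml) in the drinking water for 2 weeks from 8 weeks of age, and were compared at 2 Zeitgeber times, ZT4 in the light (resting) phase and ZT16 in the dark (active) phase. Nuclei of frozen kidney were sorted on DAPI and measured with 10x Genomics 3′ chemistry, 1 library for each mouse. The p-values below rest on libraries, 2 a group, with the spread of each gene estimated over all 8 libraries in 1 model. Shares were compared between 4 and 4 libraries, and the claudin gates within each of the 8 libraries.

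The TAL reabsorbs sodium chloride through the apical cotransporter NKCC2 (Slc12a1) and secretes uromodulin (Umod), the most abundant protein of normal urine. Its cells form paracellular pores either of claudin 10, which passes sodium, or of claudin 16 and claudin 19, which pass calcium and magnesium. A further form of claudin 10 is made in the proximal tubule from another first exon. BMAL1, with CLOCK or NPAS2, switches on the Per, Cry, Nr1d (REV-ERB) and PAR bZIP (Dbp, Tef, Hlf) genes, and REV-ERB proteins in turn repress Arntl, Npas2 and Cry1.

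In RefSeq, Cldn10 has 2 transcription starts, 67079 bases apart on the plus strand of chromosome 14, and bases just before each are shown because proximal tubule and TAL use different starts. Coordinates are those of GRCm38.p6.
Cldn10 upstream start, chr14:118787791-118787870: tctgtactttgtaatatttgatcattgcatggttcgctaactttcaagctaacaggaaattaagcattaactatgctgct
Cldn10 downstream start, chr14:118854870-118854949: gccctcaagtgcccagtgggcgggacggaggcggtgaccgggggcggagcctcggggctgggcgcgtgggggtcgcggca
The deposited counts are per gene and do not separate the starts, so 1 Cldn10 UMI counted alike from either.

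The Slc12a1 UMIs of the gated nuclei fell into 2 ranges with few nuclei close to the boundary of 10. In all, 6768 nuclei had 2 to 4 Slc12a1 UMIs, only 6 had 8 or 9, 18 had 10 to 14 and 2889 had 30 or more. Below 10 UMIs the median nucleus had 2 Slc12a1 and 3 Cldn10 UMIs, and above it 74 and 2. Since these genes chose the nuclei, the values are a description.

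**Figure D1:**
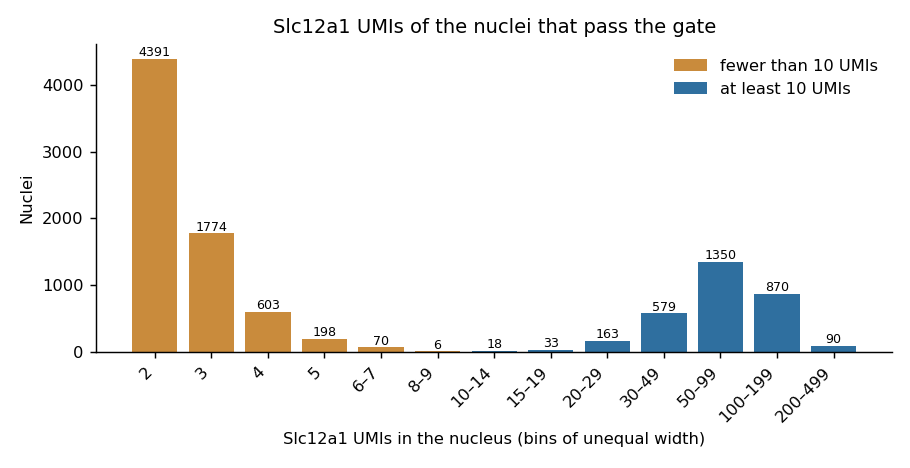
Number of gated nuclei (vertical axis) in each range of Slc12a1 UMIs per nucleus (horizontal axis), with the 7042 nuclei under 10 UMIs in orange and the 3103 nuclei with at least 10 in blue. The numbers fall from 4391 nuclei with 2 UMIs to 6 with 8 or 9, and rise again to 1350 with 50 to 99.

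Genes that the rule did not use separated the same ranges. As UMIs per 1000000 UMIs, Egf (the epidermal growth factor precursor) stood at 4854 in high-Slc12a1 nuclei and 69.8 in the others, Umod at 1998 ± 666 and 43.2 ± 14.3 (SD, n = 8 libraries), and Kcnj1, the apical potassium channel ROMK, at 429 ± 37.9 and 11.5 ± 2.32. Umod was found in 93.3% of high-Slc12a1 nuclei and 25.01% of the others. The order was the opposite for proximal tubule genes. Slc34a1, the phosphate cotransporter of that segment, stood at 700 ± 125 in high-Slc12a1 nuclei and 4018 ± 598 in the others, and Lrp2, its endocytic receptor megalin, at 403 ± 147 and 2156 ± 560. At least 10 UMIs of the 11 proximal tubule genes were held by 81.8% of the low- and 9.96% (309) of the high-Slc12a1 nuclei, and of those 309 Scrublet scored 71.5% as doublets. Doublets were 11.9% of the high and 6.96% of the low range, against 5.37% of all nuclei, and were kept except where stated.

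Low numbers of Slc12a1 UMIs were also found in nuclei of another cell type, which gives the background measured the same way. Of 11021 nuclei with at least 5 UMIs of endothelial genes and at most 9 of proximal tubule genes, 27.6% had at least 2 Slc12a1 UMIs, although endothelium should not make NKCC2, and 2.00% had at least 10. At least 1 Cldn10 UMI was found in 13.6% of them and at least 2 in 2.43%. Their median depth was 2282 UMIs, against 6169 in low- and 4082 in high-Slc12a1 nuclei. The part of such UMIs in the low range was not tested.

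Values just inside and just outside the limits are given as a description, in UMIs per 1000000 (mean ± SD of 8 libraries). The 6423 gated nuclei with exactly 2 Slc12a1 or exactly 1 Cldn10 UMI had 351 ± 157 Umod and 1818 ± 495 Lrp2 UMIs, and the 3722 further inside had 805 ± 356 Umod and 1565 ± 536 Lrp2. Nuclei outside by a single Slc12a1 UMI (8873) had 42.3 ± 16.5 Umod and 2070 ± 547 Lrp2. Those outside by Cldn10 (9864) had 458 ± 199 Umod and 400.2 ± 115 Lrp2. The 6423 nuclei include the 1353 high-Slc12a1 nuclei with a single Cldn10 UMI. Gated nuclei under 10 Slc12a1 UMIs had 43.2 ± 14.3 Umod, within the spread of those just outside the Slc12a1 limit. Lrp2 just outside that limit also lay within its spread inside. Outside the Cldn10 limit Umod lay within its spread while Lrp2 was lower.

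The libraries held 604, 1220, 1671 and 1391 gated nuclei in Ctrl (ZT4, ZT4, ZT16, ZT16) and 919, 1382, 1666 and 1292 in cKOt in the same order. As shares of all nuclei these were 6.10%, 12.2%, 15.7% and 12.95% in Ctrl and 8.86%, 13.8%, 19.0% and 11.8% in cKOt. The first Ctrl ZT4 library was the lowest and the first cKOt ZT16 library the highest. The mean share was 13.4 ± 4.28% in cKOt and 11.7 ± 4.04% in Ctrl (SD, n = 4 libraries), a difference of 1.62 percentage points that lay within the spread (exact permutation test, two-sided, p = 0.629, adjusted over 4 tests 0.629, smallest possible p 0.0286). Its direction turned without the first Ctrl ZT4 library (-0.265) or the first cKOt ZT16 library (-0.272), and with the gates applied after each nucleus had been thinned to 2000 UMIs it was 0.0518 (p = 0.971, exact permutation). Between times the share was 14.9 ± 3.22% at ZT16 and 10.2 ± 3.44% at ZT4 (exact permutation test, p = 0.143, adjusted 0.286), a difference of 4.61 percentage points, which was 1.71 after thinning (p = 0.0571, exact permutation) and 0.503 for high-Slc12a1 nuclei alone (p = 0.229, exact permutation). For high-Slc12a1 nuclei the genotypes differed by -0.343 percentage points (p = 0.543, exact permutation).

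The share of low-Slc12a1 nuclei ranged more widely than that of high-Slc12a1 nuclei. They were 3.17% to 15.0% of the nuclei of a library, whereas high-Slc12a1 nuclei were 2.93%, 4.05%, 4.70% and 4.26% in the Ctrl and 3.28%, 3.99%, 4.08% and 3.23% in the cKOt libraries. The share of endothelial nuclei that had at least 2 Slc12a1 UMIs ran from 11.7% in the first Ctrl ZT4 library to 40.0% in the first cKOt ZT16 library, and these libraries also had the lowest and the highest share of low-Slc12a1 nuclei. The first Ctrl ZT4 library was also the lowest in high-Slc12a1 nuclei, whereas the first Ctrl ZT16 library was the highest. Over the 8 libraries, the rank correlation (Spearman) with the endothelial share was 0.833 for the low-Slc12a1 and 0.857 for the high-Slc12a1 share. All these shares use limits on Slc12a1, so they are set side by side as a description, and no p-value is given.

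**Figure D2:**
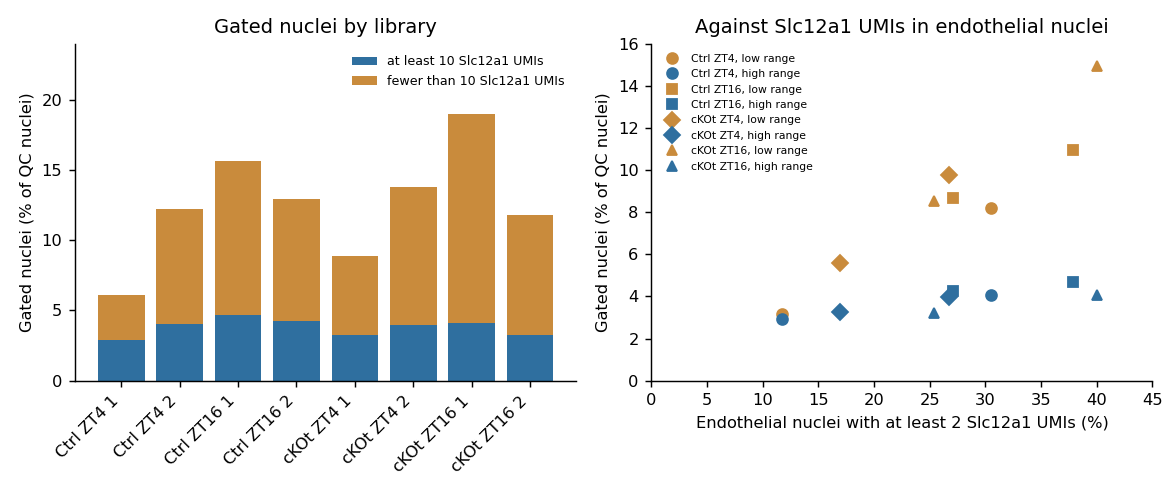
Left, share of the nuclei of each library that were gated (percent), stacked as high-Slc12a1 (blue) and low-Slc12a1 (orange) nuclei. Right, the low- and high-Slc12a1 shares (vertical axis, percent) against the share of endothelial nuclei with at least 2 Slc12a1 UMIs (horizontal axis, percent), 1 point a library with the marker shape giving the group; the orange shares run from 3.17 to 15.0 and the blue from 2.93 to 4.70.

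Set against the nuclei of the other TAL claudins, gated nuclei were 79.8 ± 3.28% of both gates together in cKOt and 73.9 ± 6.45% in Ctrl (SD, n = 4), a difference of 5.89 percentage points within the spread (exact permutation test, p = 0.143, adjusted 0.286). It was 2.61 with at least 10 Slc12a1 UMIs in both gates and 1.605 with fewer than 10 (p = 0.429 and 0.114, exact permutation). Between times the difference was 3.51 percentage points (exact permutation test, p = 0.543, adjusted 0.629), and -0.0978 without the first Ctrl ZT4 library. It was -0.965 with at least 10 and -0.325 with fewer than 10 Slc12a1 UMIs in both gates, the opposite direction (p = 0.657 and 0.771, exact permutation). Detection of the claudins in high-Slc12a1 nuclei is a description, since these genes chose the nuclei. Of 10618 such nuclei of the TAL, 3103 held Cldn10 alone, 2537 held Cldn16, Cldn19 or Tmem207 alone, 3279 held both and 1699 neither, and nuclei with both were 0.938 times as many as independent detection would give, with 0.890 to 0.947 in the libraries. With at least 2 UMIs of each required, the ratio was 0.912, with 0.786 to 0.964 in the libraries. Both ratios take every nucleus as equally deep and keep scored doublets, and neither was allowed for. At least 1 Cldn10 UMI was found in 60.1% of these nuclei and at least 1 UMI of the other claudin gate in 54.8%, against 13.6% and 4.44% of the endothelial nuclei, which should lack both.

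Markers of the other cell types were detected at low levels in high-Slc12a1 nuclei, and no listed gene of the 10 lists was at 0 in all libraries. The 11 proximal tubule genes summed to between 1484 and 2570 per 1000000 UMIs in the libraries, against 9400 to 13520 in low-Slc12a1 nuclei and 754 to 1039 in high-Slc12a1 nuclei of the claudin 16 gate. The 7 genes of distal convoluted and connecting tubule summed to 217 to 520, the 7 of thin limbs to 35.1 to 170, the 6 of collecting duct principal cells to 37.5 to 131 and the 7 of intercalated cells to 18.7 to 106. Endothelial genes (6) gave 66.1 to 158, macula densa genes (4) 44.9 to 86.7, stromal genes (6) 25.2 to 47.6, immune genes (8) 12.8 to 26.5 and podocyte genes (4) 2.65 to 22.4. The proximal tubule sum was therefore the largest, and it was higher at ZT4 (2570 and 2155) than at ZT16 (1590 and 1484) in the Ctrl libraries. In cKOt it was 2037 and 2288 at ZT4 and 2182 and 2513 at ZT16.

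Arntl, the targeted gene, was measured first. Except where another scale is named, values in the following comparisons are counts per 1000000 (CPM) of the mRNA or lncRNA UMIs. These were summed over the named nuclei of a library and given after TMM scaling. In high-Slc12a1 nuclei Arntl stood at 8.58 and 6.47 CPM in Ctrl at ZT4 and at 216 and 212 at ZT16. In cKOt it stood at 375 and 297 at ZT4 and at 367 and 350 at ZT16. The cKOt libraries were thus above every Ctrl library, with no overlap. A gene-level count from the 3′ end also counts transcripts that lack the deleted exon, so it does not check the deletion.

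In Ctrl mice, the question of which transcripts differed between day and night gave 19 mRNAs of 13551 tested (0.14%) over all gated nuclei, 11 higher and 8 lower at ZT16 (edgeR quasi-likelihood test, Benjamini-Hochberg adjusted p under 0.05). The count was 5 without the first and 4 without the second Ctrl ZT4 library, and 8 without the first Ctrl ZT16 library. In high-Slc12a1 nuclei it was 80 of 11446 (0.699%), of which 36 were higher (0.315%) and 44 lower (0.384%) at ZT16, and in low-Slc12a1 nuclei 13 of 13086 (0.0993%). In high-Slc12a1 nuclei it was 24 without the first and 43 without the second Ctrl ZT4 library, and 51 and 47 without the first and second Ctrl ZT16 library. Among the called genes of high-Slc12a1 nuclei without overlap, Arntl led those higher and Nr1d2 those lower at ZT16. Of 16 core clock genes tested in high-Slc12a1 nuclei, 4 rose, among them Arntl, Npas2 and Cry1, and 4 fell (Nr1d1, Nr1d2, Dbp, Tef) at ZT16, while the median change of all mRNAs was 0.001 on the log2 scale.

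Of the activators and the genes repressed by REV-ERB, Npas2, the partner of BMAL1 in place of CLOCK, stood at 13.9 and 12.4 CPM at ZT4 and at 42.9 and 70.2 at ZT16 in the Ctrl libraries. Cry1, a repressor of the loop, stood at 10.7 and 4.70 against 44.4 and 52.1. Both were higher in both ZT16 libraries, without overlap. The log2 changes in edgeR were 4.87 ± 0.244 (SE) for Arntl (adjusted p = 6.05e-09), 2.10 ± 0.293 for Npas2 (adjusted p = 0.00216) and 2.77 ± 0.343 for Cry1 (adjusted p = 0.000841). Npas2 lost its call without the second Ctrl ZT4 library (edgeR adjusted p = 0.0536).

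Nr1d1, Nr1d2, Dbp and Tef, direct targets of BMAL1, moved the other way. Nr1d1 stood at 19.3 and 27.6 CPM at ZT4 and at 2.47 and 0.668 at ZT16, Nr1d2 at 200.5 and 218 against 29.6 and 49.4, and Dbp at 39.7 and 30.6 against 4.44 and 1.34. Tef was at 278 and 209 against 105 and 92.9. Each was lower in both ZT16 libraries. The log2 changes in edgeR were -3.77 ± 0.562 for Nr1d1 (adjusted p = 0.00352), -2.43 ± 0.232 for Nr1d2 (adjusted p = 5.98e-05), -3.46 ± 0.548 for Dbp (adjusted p = 0.00541) and -1.28 ± 0.173 for Tef (adjusted p = 0.00168). Without the second Ctrl ZT4 library Nr1d1 was not called (edgeR adjusted p = 0.0535), nor was Dbp without the first (adjusted p = 0.0566).

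The remaining core clock genes did not pass in Ctrl. Clock stood at 128 and 158 CPM at ZT4 and 204 and 180 at ZT16, Cry2 at 45.04 and 29.99 against 39.0 and 29.4, Per1 at 32.2 and 15.3 against 17.8 and 14.7, and Per2 at 56.8 and 46.5 against 50.4 and 48.1. Of these only the Clock libraries did not overlap between times. Hlf stood at 70.8 and 62.9 against 63.2 and 32.8, Nfil3, a repressor that binds the same sites as the PAR bZIP factors, at 0 and 2.352 against 8.39 and 21.4 (adjusted p = 0.0672 in edgeR), Rora at 1215 and 1167 against 720 and 849 (adjusted p = 0.0917) and Rorb at 1.07 and 1.18 against 2.96 and 8.69. For Rora, DESeq2 gave an adjusted p of 0.0302 and edgeR without scored doublets 0.0315.

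Of 19 clock output and accessory genes tested, 1 rose and 2 fell in Ctrl. Rhobtb1, a BTB domain protein, stood at 85.8 and 62.9 CPM at ZT4 and 187 and 174 at ZT16, Per3 at 102 and 90.0 against 20.2 and 26.7, and Alk, a receptor tyrosine kinase, at 34.3 and 33.5 against 2.47 and 5.35. The libraries of the 2 times did not overlap for any of these. The log2 change was 1.31 ± 0.190 for Rhobtb1 (edgeR adjusted p = 0.00273), -2.04 ± 0.236 for Per3 (edgeR adjusted p = 0.000602) and -3.16 ± 0.488 for Alk (edgeR adjusted p = 0.00462). Rhobtb1 was lost without the second Ctrl ZT4 library (adjusted p = 0.0648) and Alk without the first Ctrl ZT16 library (adjusted p = 0.0649), whereas Arntl, Nr1d2, Per3, Cry1 and Tef were called whichever library was left out. Without scored doublets the log2 change of Rhobtb1 was 2.19 (edgeR adjusted p = 0.00021) and that of Npas2 2.69 (adjusted p = 0.000446).

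**Figure D3:**
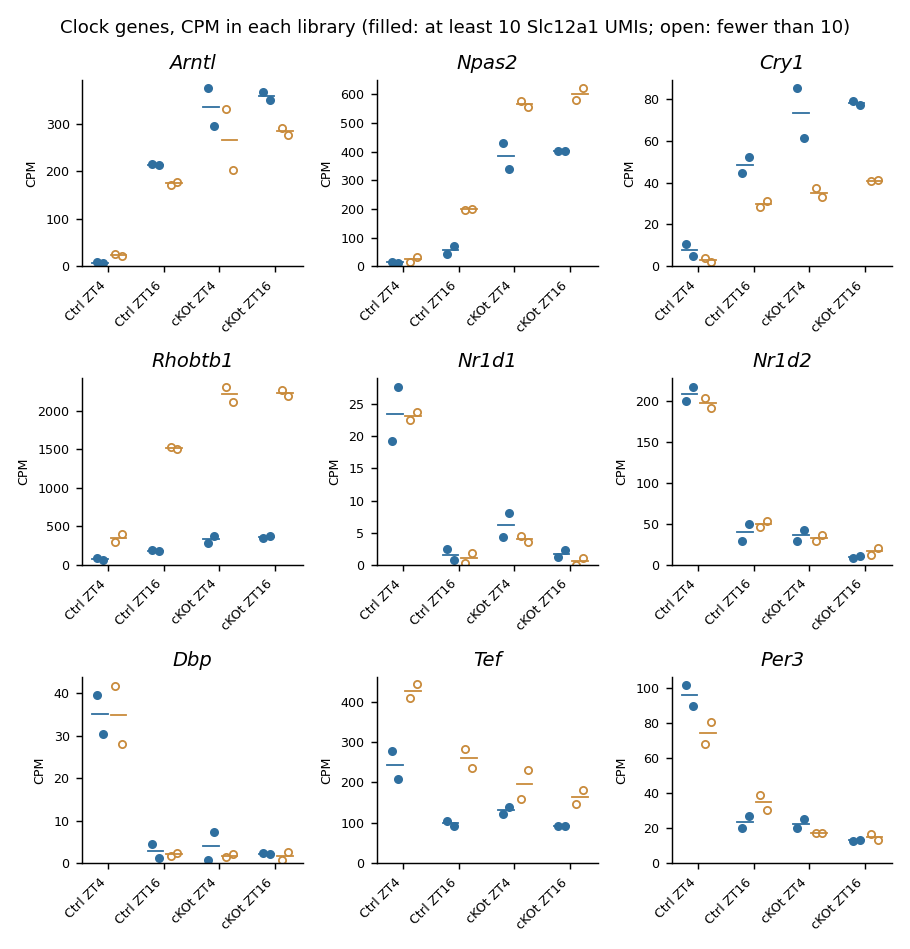
CPM of 9 clock genes in each library (vertical axes, 1 panel a gene) for the 4 groups (horizontal axes), in high-Slc12a1 nuclei (filled blue points) and low-Slc12a1 nuclei (open orange points), with lines at the mean of the 2 libraries. In high-Slc12a1 nuclei Arntl lies between 6.47 and 8.58 in Ctrl ZT4 and between 212 and 375 in the other groups.

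The low-Slc12a1 nuclei held the same clock genes at other levels. Npas2 stood at 14.6 and 33.7 CPM in their Ctrl ZT4 and 197 and 201 in their Ctrl ZT16 libraries, and Rhobtb1 at 291 and 394 against 1521 and 1501. Rhobtb1 was thus several times higher there than in the high-Slc12a1 nuclei of the same libraries, in each of the 8 libraries. Over all gated nuclei, which these dominate, the log2 change between times was 3.36 ± 0.225 for Arntl (edgeR adjusted p = 0.000642), 2.91 for Npas2 (adjusted p = 0.00243), 2.23 for Rhobtb1 (adjusted p = 0.00369), 3.09 for Cry1 (adjusted p = 0.00549) and -2.60 for Alk (adjusted p = 0.000642). Acmsd, a tryptophan pathway enzyme of proximal tubule (1.62, edgeR adjusted p = 0.00467), and Ccdc148 (-1.32, edgeR adjusted p = 0.00794) were also among the 5 leading genes of their direction. Sgk1, the aldosterone-induced kinase, stood at 27.3 and 22.2 against 60.7 and 67.9 CPM (log2 change 1.40, edgeR adjusted p = 0.0217) and was the only called gene of the 14 NKCC2 regulation genes over all gated nuclei. Sgk1 and Ccdc148 were lost without any of the 4 Ctrl libraries (edgeR adjusted p up to 0.225 and 0.111), Acmsd without either Ctrl ZT4 library (adjusted p up to 0.0631) and Cry1 without the second (adjusted p = 0.0714).

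Outside the clock, the leading genes of high-Slc12a1 nuclei in Ctrl were Itga6, Dcdc2a and Hspa5, higher at ZT16, and Cubn and Klhl29, lower. Hspa5 and the proximal tubule gene Cubn are described further on. Itga6, the laminin-binding integrin alpha 6, stood at 178 and 140.5 CPM at ZT4 and 368 and 387 at ZT16 (log2 change 1.26 ± 0.155, edgeR adjusted p = 0.000841). Dcdc2a, a doublecortin-domain protein of cilia, stood at 22.5 and 20.0 against 71.1 and 80.2 (log2 change 1.84 ± 0.233, edgeR adjusted p = 0.000843). Klhl29 was lower at ZT16, with 108 and 119 against 20.7 and 17.4 (log2 change -2.56 ± 0.372, edgeR adjusted p = 0.00273), a call DESeq2 did not make (adjusted p = 0.175).

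Hspa5, Hsp90b1, Pdia6 and Magt1, which code for proteins of the endoplasmic reticulum, were higher at ZT16 in high-Slc12a1 nuclei. They were on no list and were set together after their values were seen, so they are described by gene and nothing is drawn from them about that compartment. Hspa5, the chaperone BiP, stood at 40.8 and 61.2 CPM at ZT4 and 189 and 162 at ZT16 in Ctrl, and at 59.9 and 47.3 against 205 and 126 in cKOt. Hsp90b1, the chaperone GRP94, stood at 84.7 and 90.0 against 241 and 205 in Ctrl, and at 116 and 83.0 against 282 and 215 in cKOt. In each genotype both ZT16 libraries were above both ZT4 libraries. Pdia6, a protein disulfide isomerase, stood at 27.9 and 34.1 against 78.5 and 71.5 in Ctrl, and at 24.3 and 20.3 against 75.4 and 75.8 in cKOt. Magt1, an oxidoreductase subunit of the oligosaccharyltransferase, stood at 77.2 and 71.2 against 145 and 158 in Ctrl, and at 66.8 and 70.1 against 151 and 161 in cKOt. The libraries of the 2 times did not overlap in either genotype for these 4 genes, which were set together with these values known.

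The log2 changes of these 4 genes were 1.74 ± 0.242 for Hspa5 in Ctrl (edgeR adjusted p = 0.00216) and 1.65 ± 0.242 in cKOt (edgeR adjusted p = 0.00777), 1.35 ± 0.193 (adjusted p = 0.00263) and 1.34 ± 0.190 (adjusted p = 0.00777) for Hsp90b1, 1.25 ± 0.215 (adjusted p = 0.00972) and 1.77 ± 0.227 (adjusted p = 0.00692) for Pdia6, and 1.04 ± 0.166 (adjusted p = 0.00561) and 1.18 ± 0.167 (adjusted p = 0.00777) for Magt1. The difference between the genotypes in this change was -0.09 ± 0.345 for Hspa5, -0.01 ± 0.269 for Hsp90b1, 0.52 ± 0.318 for Pdia6 and 0.15 ± 0.236 for Magt1, none of them called (edgeR adjusted p = 0.999 for each). In Ctrl, Hspa5 and Hsp90b1 were called whichever library was left out, Magt1 was lost without the second Ctrl ZT4 library (adjusted p = 0.0837) and Pdia6 without either Ctrl ZT4 or the first Ctrl ZT16 library (adjusted p up to 0.121). In cKOt all 4 were lost without the second cKOt ZT4 library, and Hspa5, Hsp90b1 and Magt1 also without the first cKOt ZT16 library (edgeR adjusted p up to 0.158).

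The lists of transport and regulation held few called genes between times in Ctrl. Magi1, a scaffold protein of tight junctions, was the only called gene of 14 tight junction genes, at 1238 and 1115 CPM at ZT4 and 528 and 742 at ZT16 (log2 change -0.89 ± 0.163, edgeR adjusted p = 0.0139), and it was lost without either Ctrl ZT4 library or the first Ctrl ZT16 library (adjusted p up to 0.178). None of 14 salt transport, 13 NKCC2 regulation or 16 calcium and magnesium genes was called, nor any gene of the hormone receptor, hypertonicity, energy metabolism, transcription factor and stress lists. Umod stood at 2569 and 2722 at ZT4 and at 3570 and 3515 at ZT16, which did not overlap but did not pass (log2 change 0.42 ± 0.140, edgeR adjusted p = 0.256). Of the 11 proximal tubule genes, 2 were lower at ZT16, Cubn (149 and 173 against 44.4 and 46.8, log2 change -1.83 ± 0.228, edgeR adjusted p = 0.000841) and Slc5a12 (414 and 341 against 211 and 183, log2 change -0.93 ± 0.159, edgeR adjusted p = 0.00972, up to 0.176 without 1 library). The list's median change was -0.421, in the direction of the proximal tubule sums given above, and the part of those nuclei in the change was not tested. Without scored doublets Cubn was at an edgeR adjusted p of 0.0451.

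In cKOt mice, no mRNA of 13522 (0%) was called between times over all gated nuclei by edgeR, with 1007 at an unadjusted p under 0.05 and 56 called by DESeq2. The edgeR count was 2 without the first cKOt ZT4 library and 1 without the first cKOt ZT16 library. None of 13068 (0%) was called in low-Slc12a1 nuclei by edgeR, with 836 at an unadjusted p under 0.05. In high-Slc12a1 nuclei 24 of 11354 (0.211%) were called, 11 higher (0.0969%) and 13 lower (0.114%) at ZT16. This count rested on single libraries: it was 15 and 4 without the first and second cKOt ZT4 library, 4 without the first cKOt ZT16 library, and 39 and 41 without the first and second Ctrl ZT16 library.

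The clock genes that differed between times in Ctrl did not pass in cKOt, apart from Nr1d2, the only called gene of 15 core clock genes, while none of 18 clock output genes was called. In the cKOt ZT4 libraries Npas2 stood at 429 and 340 CPM and at ZT16 at 403 and 401, and Cry1 at 85.1 and 61.4 against 78.8 and 77.3. These libraries overlapped between times. Nr1d2 stood at 29.5 and 43.0 against 8.69 and 11.3 (log2 change -1.90 ± 0.334, edgeR adjusted p = 0.0241), without overlap, and was lost without the second cKOt ZT4 or either cKOt ZT16 library (adjusted p up to 0.3302). Nr1d1 stood at 4.34 and 7.99 against 1.16 and 2.25 (adjusted p = 0.417 in edgeR), Dbp at 0.868 and 7.37 against 2.32 and 2.25, Tef at 122 and 139 against 91.6 and 93.1 and Per3 at 20.0 and 25.2 against 12.8 and 13.5. Of these, Nr1d1, Tef and Per3 were lower in both ZT16 libraries but did not pass (adjusted p = 0.385 for Tef and 0.431 for Per3 in edgeR).

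The rest of the core clock genes stood in cKOt, at ZT4 and then ZT16, as follows. Clock was at 199 and 184 CPM against 205 and 205, Cry2 at 45.1 and 65.1 against 52.8 and 39.8, and Per1 at 26.9 and 7.99 against 16.2 and 8.26. Per2 was at 85.1 and 52.9 against 97.96 and 47.3, Hlf at 49.5 and 41.2 against 51.6 and 45.03, and Nfil3 at 20.8 and 9.83 against 16.8 and 13.5. Rora was at 968 and 1129 against 660 and 802, below ZT4 in both ZT16 libraries (edgeR adjusted p = 0.250), and Rorb at 4.34 and 0 against 2.90 and 5.25.

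Beside Hspa5, Hsp90b1, Pdia6 and Magt1, Lama1, a laminin chain, was higher at ZT16 in cKOt, with 72.0 and 87.9 CPM at ZT4 and 157 and 211 at ZT16 (log2 change 1.19 ± 0.201, edgeR adjusted p = 0.0241). Scd1, the stearoyl-CoA desaturase, was lower, with 13.02 and 32.6 against 0.580 and 0.750 (log2 change -5.00 ± 0.726, edgeR adjusted p = 0.00777). In Ctrl it stood at 4.29 and 4.12 against 5.43 and 2.67. Kcnt1, a sodium-activated potassium channel, stood at 287 and 300 against 130 and 145 (log2 change -1.10 ± 0.163, edgeR adjusted p = 0.00777), and at 252 and 256 against 178 and 132 in Ctrl, where both ZT16 libraries were also the lower. Kif23, a kinesin of cytokinesis, Rad51b, a recombination protein, and Agbl3, a tubulin carboxypeptidase, were the other leading genes lower at ZT16 in cKOt, with log2 changes of -2.32, -1.56 and -1.05 (edgeR adjusted p = 0.00777, 0.0112 and 0.0241). Magi1 was again the only called gene of the tight junction list, at 1026 and 1078 against 565 and 600 (log2 change -0.85 ± 0.163, edgeR adjusted p = 0.0397). Scd1, Kcnt1, Rad51b, Lama1, Agbl3 and Magi1 were lost without the second cKOt ZT4 library, and Kif23 without the first (edgeR adjusted p up to 0.334).

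Between genotypes at ZT4, 52 mRNAs of 13107 (0.397%) were called over all gated nuclei, 32 higher and 20 lower in cKOt. The count was 21 and 18 without the first and second Ctrl ZT4 library and 34 without the first cKOt ZT4 library. In high-Slc12a1 nuclei 52 of 11156 (0.466%) were called, 35 higher (0.314%) and 17 lower (0.152%), or 24 without the second Ctrl ZT4 library, and in low-Slc12a1 nuclei 58 of 12392 (0.468%). At ZT16, 28 of 13752 (0.204%) were called over all gated nuclei, 15 higher and 13 lower, with 7 and 6 without the first and second Ctrl ZT16 library and 3 and 1 without the first and second cKOt ZT16 library. In high-Slc12a1 nuclei 29 of 11534 (0.251%) were called at ZT16, 20 higher (0.173%) and 9 lower (0.078%), and in low-Slc12a1 nuclei 40 of 13367 (0.299%). The high-Slc12a1 count at ZT16 was 18 and 11 without the first and second Ctrl ZT16 library, 47 and 44 without the first and second cKOt ZT4 library, and 7 without the second cKOt ZT16 library. These contrasts share their libraries with those between times (the Ctrl ZT4 libraries enter both the time contrast in Ctrl and the genotype contrast at ZT4), so their values are set side by side and no overlap is drawn from them.

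Clock genes were among those that differed at ZT4. Of 15 core clock genes tested, 4 were higher, among them Arntl, Npas2 and Cry1, and 3 lower (Nr1d2, Dbp, Tef) in cKOt, and of 19 output genes Rhobtb1 was higher and Per3 lower. The log2 differences were 5.51 ± 0.240 for Arntl (edgeR adjusted p = 6.11e-10), 4.88 ± 0.258 for Npas2 (adjusted p = 7.19e-09), 3.37 ± 0.333 for Cry1 (adjusted p = 3.24e-05) and 2.18 ± 0.189 for Rhobtb1 (adjusted p = 9.17e-06), the last at 286 and 372 CPM in cKOt. They were -2.50 ± 0.239 for Nr1d2 (edgeR adjusted p = 2.35e-05), -2.06 ± 0.244 for Per3 (adjusted p = 0.000264), -2.90 ± 0.537 for Dbp (adjusted p = 0.0172) and -0.88 ± 0.172 for Tef (adjusted p = 0.0237). Every gene named was called whichever library was left out except Dbp and Tef, of which Dbp was lost without either Ctrl ZT4 or the first cKOt ZT4 library (edgeR adjusted p up to 0.141) and Tef without the first Ctrl ZT4 or either cKOt ZT4 library (adjusted p up to 0.361). Without scored doublets the log2 difference of Npas2 was 5.51 (edgeR adjusted p = 9.93e-11). Nr1d1 did not pass at ZT4 (log2 difference -1.90 ± 0.471, edgeR adjusted p = 0.123).

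At ZT16, 2 of 14 core clock genes were called, Npas2 higher (log2 difference 2.85 ± 0.202, edgeR adjusted p = 1.38e-06) and Nr1d2 lower in cKOt (-1.97 ± 0.324, adjusted p = 0.0160). Of 18 output genes Rhobtb1 was higher (341 and 378 CPM in cKOt, log2 difference 1.00 ± 0.169, edgeR adjusted p = 0.0160). Arntl lay just outside the limit (0.74 ± 0.151, edgeR adjusted p = 0.0503). Npas2 was called whichever library was left out, whereas Nr1d2 was lost without the second Ctrl ZT16 or either cKOt ZT16 library (edgeR adjusted p up to 0.138) and Rhobtb1 without scored doublets (adjusted p = 0.700), or without either Ctrl ZT16 or the second cKOt ZT16 library (adjusted p up to 0.161). In low-Slc12a1 nuclei Npas2 stood at 576 and 558 CPM at ZT4 and at 581 and 621 at ZT16 in cKOt, and Arntl at 331 and 203 against 292 and 277.

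Of the TAL's own products, Umod was lower in cKOt at both times. In high-Slc12a1 nuclei it stood at 1464 and 1646 CPM in cKOt against 2569 and 2722 in Ctrl at ZT4, and at 2091 and 1903 against 3570 and 3515 at ZT16, so that every cKOt library lay below every Ctrl library. The group means were 1555 ± 129 and 2646 ± 108 at ZT4 (SD, n = 2), and 1997 ± 133 and 3543 ± 39.0 at ZT16. The log2 differences were -0.77 ± 0.141 at ZT4 (edgeR adjusted p = 0.0172) and -0.83 ± 0.141 at ZT16 (edgeR adjusted p = 0.0160), and Umod was the only called gene of 13 NKCC2 regulation genes at each time. The call at ZT4 was lost without any of the 4 ZT4 libraries (edgeR adjusted p up to 0.369) and that at ZT16 without either cKOt ZT16 library (adjusted p up to 0.259). Umod did not pass over all gated nuclei (log2 difference -1.07, edgeR adjusted p = 0.0677 at ZT4, and -0.99, adjusted p = 0.121 at ZT16). In low-Slc12a1 nuclei it stood at 31.7 to 50.0 CPM in cKOt and 51.0 to 78.2 in Ctrl.

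Klk1, the renal kallikrein, a secreted kininogenase, followed the same order. It stood at 59.9 and 113 CPM in cKOt and 272 and 213 in Ctrl at ZT4, and at 154 and 138 against 333 and 312 at ZT16 (log2 difference -1.45 ± 0.222, edgeR adjusted p = 0.00297 at ZT4, and -1.14 ± 0.207, edgeR adjusted p = 0.0237 at ZT16). Abca13, a member of the ABCA lipid transporter family, stood at 1009 and 1193 against 2417 and 2509 at ZT4, and at 1113 and 1180 against 2739 and 2999 at ZT16 (log2 difference -1.16 ± 0.145, edgeR adjusted p = 0.000421, and -1.32 ± 0.145, adjusted p = 0.000219). The genotypes did not overlap for either gene, a condition by which leading genes were chosen. Kcnma1, the pore of the large-conductance calcium-activated potassium channel, was the only called gene of 14 salt transport genes, lower in cKOt at ZT16 (47.0 and 45.8 against 103 and 98.2, log2 difference -1.11 ± 0.210, edgeR adjusted p = 0.0305). At ZT4 it stood at 33.9 and 52.2 against 95.4 and 79.97 and did not pass (-0.99 ± 0.221, edgeR adjusted p = 0.0671, 0.00452 without scored doublets). Abca13 was called at both times whichever library was left out, Klk1 at ZT4 only, and the calls of Klk1 and Kcnma1 at ZT16 were lost without any of the 4 ZT16 libraries (edgeR adjusted p up to 0.259).

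**Figure D4:**
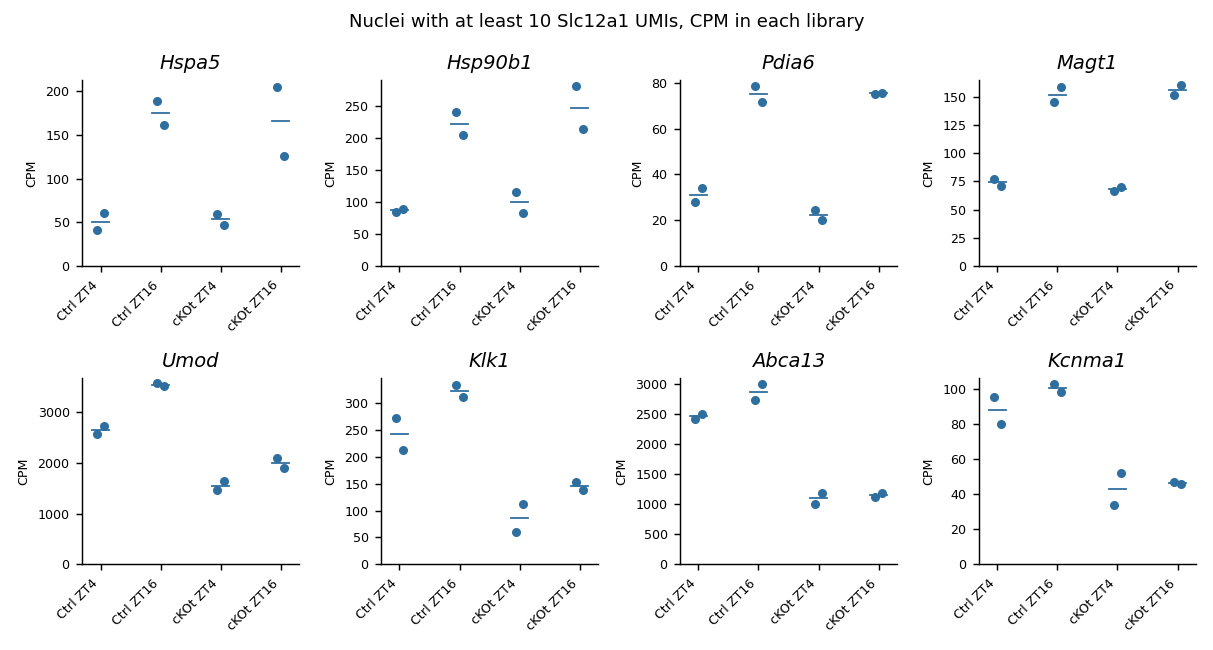
CPM in high-Slc12a1 nuclei of each library (vertical axes, 1 panel a gene) for the 4 groups (horizontal axes), with lines at the mean of the 2 libraries. Hspa5, Hsp90b1, Pdia6 and Magt1 are higher at ZT16 in both genotypes, and Umod, Klk1, Abca13 and Kcnma1 are lower in cKOt at both times, Umod between 1464 and 2091 in cKOt and between 2569 and 3570 in Ctrl; Kcnma1 at ZT4 did not pass the test.

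The other leading genes of the genotype contrasts were of mixed kinds. Shisa9, an auxiliary subunit of AMPA receptors, stood at 128 and 127 CPM in cKOt against 22.5 and 19.4 in Ctrl at ZT4 (log2 difference 2.62 ± 0.272, edgeR adjusted p = 5.56e-05), and at 67.2 and 63.0 against 10.9 and 3.34 at ZT16 (3.10 ± 0.315, adjusted p = 0.000101). Spon1, the matrix protein F-spondin, stood at 136 and 121 against 33.2 and 29.99 at ZT4 (2.03 ± 0.249, edgeR adjusted p = 0.000352), and at 100.3 and 111 against 29.1 and 52.8 at ZT16 (1.39, adjusted p = 0.0160). Both were higher in every cKOt library, and lack of overlap was a condition by which leading genes were chosen. Dcdc2a stood at 105 and 128 against 22.5 and 20.0 at ZT4 (2.48 ± 0.228, edgeR adjusted p = 1.71e-05). Cyp7b1, an oxysterol hydroxylase, stood at 412 and 522 against 94.3 and 104 at ZT16 (2.24 ± 0.210, edgeR adjusted p = 4.68e-05), and at 297 and 179 against 132 and 155 at ZT4. Without scored doublets its log2 difference at ZT16 was 1.67 ± 0.264 (edgeR adjusted p = 0.00311). On the scale of all UMIs used above for Egf, Cyp7b1 was higher in low-Slc12a1 nuclei (858 ± 324) than in high-Slc12a1 nuclei (194 ± 127, SD over libraries). It stood at 81.0 ± 32.2 in high-Slc12a1 nuclei of the claudin 16 gate. The part of low-Slc12a1 nuclei in the genotype difference of Cyp7b1 was not tested.

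Lower in cKOt were Dlgap1, a scaffold protein, Ano4, of the anoctamin family, Klhl29 and Ces1d, a carboxylesterase. Dlgap1 stood at 65.1 and 95.2 CPM against 244 and 199 at ZT4 (log2 difference -1.44 ± 0.193, edgeR adjusted p = 0.000831), and at 94.5 and 89.3 against 186 and 218 at ZT16 (-1.13 ± 0.186, adjusted p = 0.0160). Ano4 stood at 162 and 161 against 264 and 386 at ZT4 (-1.02, edgeR adjusted p = 0.0172), and at 178 and 144 against 329 and 404 at ZT16 (-1.18 ± 0.184, adjusted p = 0.0124). Neither overlapped between genotypes, a condition by which leading genes were chosen. Klhl29 stood at 2.60 and 23.4 against 108 and 119 at ZT4 (-2.99 ± 0.401, edgeR adjusted p = 0.000831, DESeq2 0.0553). Ces1d stood at 1.74 and 2.25 against 25.2 and 39.4 at ZT16 (-3.97 ± 0.497, edgeR adjusted p = 0.00106). Spon1 at ZT16 was lost without the first Ctrl ZT16 or the second cKOt ZT16 library (edgeR adjusted p up to 0.176). Ano4 at ZT4 was lost without the second Ctrl ZT4 or either cKOt ZT4 library (edgeR adjusted p up to 0.305), Ano4 at ZT16 without the second library of either genotype (adjusted p up to 0.156), and Dlgap1 at ZT16 without the second Ctrl ZT16 or either cKOt ZT16 library (adjusted p up to 0.154).

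Some genotype calls of high-Slc12a1 nuclei were genes of proximal tubule and were lost without scored doublets. Of the 11 proximal tubule genes, Lrp2 (705 and 818 CPM against 272 and 415), Slc5a12 (327 and 398 against 211 and 183) and Cubn (81.7 and 139 against 44.4 and 46.8) were higher in cKOt at ZT16, with edgeR adjusted p of 0.0215, 0.0237 and 0.0261, and of 0.166, 0.132 and 0.462 without doublets. Gatm, the enzyme that makes guanidinoacetate, stood at 156 and 148 against 95.4 and 72.9 at ZT4 and at 177 and 184 against 79.0 and 84.9 at ZT16 (log2 difference 1.14 ± 0.168, edgeR adjusted p = 0.00671, and 0.223 without doublets). Fhad1, a protein with a forkhead-associated domain, stood at 18.2 and 17.8 against 1.07 and 1.76 at ZT4 (log2 difference 3.50 ± 0.640, edgeR adjusted p = 0.0168, and 0.704 without doublets). In low-Slc12a1 nuclei Fhad1 stood at 60.6 to 105 in cKOt and at 1.06 to 1.75 in Ctrl. Over all gated nuclei it led both genotype contrasts (log2 difference 5.00, edgeR adjusted p = 4.85e-05 at ZT4, and 5.85, adjusted p = 4.70e-06 at ZT16). Vmn1r32, a vomeronasal receptor gene, stood at 19.1, 18.4, 7.54 and 12.8 in the cKOt libraries of high-Slc12a1 nuclei and had no UMI in any Ctrl library there. Unlike the genes above, it was called at ZT16 both with and without scored doublets (edgeR adjusted p = 0.0160 and 0.00774). In high-Slc12a1 nuclei the calls of Lrp2, Slc5a12, Cubn and Gatm at ZT16 were also lost without the first Ctrl ZT16 or the second cKOt ZT16 library (edgeR adjusted p up to 0.386), and that of Fhad1 at ZT4 without any of the 4 ZT4 libraries (adjusted p up to 0.187).

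Among all gated nuclei the further leading genes at ZT4 included Arntl (log2 difference 3.98), Npas2 (4.55) and Rhobtb1 (2.75), higher in cKOt, and Per3 (-2.12), Cyp2a4 (-3.26), Nr1d2 (-2.54), Vmn1r18 (-1.64) and Dbp (-3.74), lower. At ZT16 they were Grid1 (2.09), Shisa9 (2.42), Nckap5 (1.43) and Npas2 (1.76), higher, and Angptl4 (-3.48), Cyp2a4 (-2.44), Ces1d (-2.73), Adgrb3 (-2.36) and Col27a1 (-1.54), lower, all with an edgeR adjusted p under 0.05. At ZT4 none of those named lost its call without 1 library, whereas at ZT16 each did. Npas2, Shisa9 and Col27a1 were lost without any of the 4 ZT16 libraries, Cyp2a4, Ces1d, Adgrb3 and Nckap5 without 3 of them, Angptl4 without either cKOt ZT16 library and Grid1 without the second (edgeR adjusted p between 0.0695 and 0.165 at the highest). Cyp2a4, a cytochrome P450, stood at 2.85 to 5.34 CPM in the cKOt and 24.96 to 39.4 in the Ctrl libraries. Angptl4, an inhibitor of lipoprotein lipase, stood at 1.61 and 2.07 in cKOt ZT16 and 22.6 and 17.6 in Ctrl ZT16.

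The time effect itself differed between genotypes for Arntl alone: 1 mRNA of 13848 (0.00722%) over all gated nuclei (log2 difference of changes -3.26 ± 0.292, edgeR adjusted p = 0.0100) and 1 of 11759 (0.0085%) in high-Slc12a1 nuclei (-4.77 ± 0.297, adjusted p = 1.89e-07). Arntl over all gated nuclei was lost without the second Ctrl ZT4 or either cKOt ZT16 library, and in high-Slc12a1 nuclei it was called whichever library was left out (adjusted p up to 6.38e-05). The number of genes called in high-Slc12a1 nuclei was 2, 3 or 6 without 1 library, 6 without the first Ctrl ZT16 library, 3 without either Ctrl ZT4 or the second cKOt ZT4 library, and 2 without any of the others. Over all gated nuclei it was 3 without the first Ctrl ZT4 library and 0 without either cKOt ZT16 library. In high-Slc12a1 nuclei Cry1 (-2.67 ± 0.421, edgeR adjusted p = 0.0501) and Npas2 (-2.03 ± 0.346, adjusted p = 0.0825) lay outside the limit, and inside it without scored doublets (adjusted p = 0.0293 for both). In low-Slc12a1 nuclei 4 of 13424 (0.0298%) were called, among them Arntl (-2.84), Cry1 (-3.26) and Rhobtb1 (-2.13).

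Among lncRNAs, 9 of 2340 (0.385%) differed between times in Ctrl over all gated nuclei, 0 of 2393 (0%) in cKOt (227 at an unadjusted p under 0.05 in edgeR, 6 called by DESeq2), 15 of 2118 (0.708%) between genotypes at ZT4 and 7 of 2515 (0.278%) at ZT16. For the difference between time effects it was 0 of 2588 (0%, 101 at an unadjusted p under 0.05 in edgeR, 1 called by DESeq2). In high-Slc12a1 nuclei the counts were 6 of 1325 (0.453%), 9 of 1278 (0.704%), 5 of 1219 (0.41%), 2 of 1337 (0.15%) and 0 of 1433 (0%, 76 at an unadjusted p under 0.05 in edgeR, 0 by DESeq2), in the same order. These small counts turned on single libraries. The time count of all gated nuclei in Ctrl fell to 0 without the first Ctrl ZT4 or first Ctrl ZT16 library, 2 without the second Ctrl ZT4 and 1 without the second Ctrl ZT16 library, and that in cKOt rose to 5 without either Ctrl ZT4 and to 2 without the second Ctrl ZT16 or the first cKOt ZT16 library. At ZT4 it was 4 and 3 without the first and second Ctrl ZT4 and 9 and 7 without the first and second cKOt ZT4 library, and at ZT16 it was 0 and 1 without the first and second Ctrl ZT16, 11 without the second Ctrl ZT4, 24 and 13 without the first and second cKOt ZT4 and 0 without the second cKOt ZT16 library. In high-Slc12a1 nuclei each of these counts moved by more than 1.5 times without at least 4 of the 8 libraries, within 0 to 20, 1 to 23, 1 to 13, 0 to 15 and 0 to 9.

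The lncRNAs are named without a role. In Ctrl over all gated nuclei, Gm43581 (3.77 and 4.30 CPM of lncRNA UMIs at ZT4, 35.7 and 29.6 at ZT16, log2 change 2.96), Gm21887 (2.40) and Gm15348 (1.80) were higher at ZT16, and Gm15581 (187 and 169 against 46.0 and 45.3, log2 change -1.96), Gm36120 (-2.72) and Gm13481 (-2.05) lower, each called in edgeR. In high-Slc12a1 nuclei Gm21887 (5.55 and 35.2 against 170 and 114) and C030037D09Rik (27.8 and 44.9 against 144 and 144) were higher, and Gm4107 (144 and 83.3 against 26.1 and 16.9), 4930533I22Rik (366 and 292 against 67.9 and 80.3) and Gm36120 (88.8 and 135 against 18.3 and 33.8) lower, each with an edgeR adjusted p of 0.0224. Lack of overlap between times was a condition for naming the 5, so nothing is drawn from it. DESeq2 called none of the 5, and edgeR without scored doublets called only Gm4107. Each of the 5 was lost without either Ctrl ZT4 or the first Ctrl ZT16 library (edgeR adjusted p up to 0.310). Over all gated nuclei Gm43581, Gm15348, Gm36120 and Gm13481 were lost without any of the 4 Ctrl libraries, Gm15581 without 3 of them and Gm21887 without the first of either time (edgeR adjusted p up to 0.362).

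In cKOt, high-Slc12a1 nuclei had Gm47283 (74.6 and 147 against 419 and 1486 CPM of lncRNA UMIs, log2 change 3.04) and Gm36388 (629 and 464 against 1335 and 1113, 1.17) higher at ZT16, and Gm36120 (85.2 and 108 against 16.2 and 8.77, -2.87), Gm4876 (-1.63) and 9530026P05Rik (-1.25) lower, each called in edgeR. Gm36120 was thus lower in both ZT16 libraries of each genotype. Each of these 5 lost its call without at least 1 of the cKOt libraries (edgeR adjusted p up to 0.364). Between genotypes Gm9961 (383.5 and 521 against 83.3 and 89.7, log2 difference 2.38, edgeR adjusted p = 0.000179), C030037D09Rik (2.19) and Gm30097 (208 and 176 against 27.8 and 44.9, 2.32) were higher in cKOt at ZT4. Gm30097 was not called without scored doublets (edgeR adjusted p = 0.260), and both it and C030037D09Rik were lost without either Ctrl ZT4 library (adjusted p up to 0.142). At ZT16, 9030625G05Rik was higher (286 and 149 against 49.6 and 4.23, 2.82, edgeR adjusted p = 0.0132) and Gm29266 lower in cKOt (234 and 167 against 465 and 571, -1.35, adjusted p = 0.0427), and each was lost without 2 or 3 of the single libraries (edgeR adjusted p up to 0.0827 and 0.430). Over all gated nuclei Gm26652 (172 and 200 against 35.8 and 40.2, 2.28), Gm43581 (4.11) and 1700042O10Rik (1.85) were the leading lncRNAs higher in cKOt at ZT4 and 4930533I22Rik (-1.35) the one lower. At ZT16 they were Gm13936 (3.33), Gm33906 (3.23) and 9030625G05Rik (2.69), higher, and Gm15441 (8.00 and 10.1 against 67.5 and 170, -3.71), Gm22146 (-2.13) and B930092H01Rik (-2.04), lower. Of these 10 results over all gated nuclei, Gm26652 alone was called whichever library was left out, and the highest edgeR adjusted p of the others was between 0.0532 and 0.434. Of 8 listed nuclear lncRNAs, among them Malat1 and Neat1, none was called in any of these contrasts by edgeR.

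The promoters of the clock genes were searched because several called genes are targets of BMAL1 or of PAR bZIP factors. In the 250 bases before each RefSeq start, the E-box CACGTG, its own reverse complement and bound by BMAL1 with its partners, was found in 1978 of 32851 windows (6.02%), and the D-box TTATGTAA, on either strand, in 269 (0.819%). Of 134 called mRNAs with a window, 15 held the E-box and 1 the D-box. A gene can have several windows, so these counts of genes cannot be set against the shares of windows. Of 10 called clock genes with a window, Cry1, Rhobtb1 and Tef held the E-box and Per3 the D-box. They are shown with bases on either side, read 5′ to 3′ on the strand of the gene, with the motif in capitals.
Cry1, chr10:85185072-85185151, minus strand: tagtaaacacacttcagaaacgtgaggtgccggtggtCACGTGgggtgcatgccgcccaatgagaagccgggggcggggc
Rhobtb1, chr10:69212553-69212632, plus strand: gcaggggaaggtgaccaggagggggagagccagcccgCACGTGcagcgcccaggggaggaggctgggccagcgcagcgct
Tef, chr15:81802509-81802588, plus strand: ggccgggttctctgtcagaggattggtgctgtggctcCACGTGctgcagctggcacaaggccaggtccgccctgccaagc
Tef, a further start, chr15:81811239-81811318, plus strand: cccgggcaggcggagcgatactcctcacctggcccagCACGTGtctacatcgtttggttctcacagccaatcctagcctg
Per3, chr4:151044826-151044907, minus strand: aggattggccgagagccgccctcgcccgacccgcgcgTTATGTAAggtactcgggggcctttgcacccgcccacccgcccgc
The motif began 60 bases before the start in Cry1, 67 in Rhobtb1, 127 and 138 in Tef and 205 in Per3. Of these genes, Tef and Per3 were lower and Cry1 and Rhobtb1 higher in cKOt at ZT4. A match says only that the letters are there, and their absence from this window says nothing of more distant sites.

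The gated nuclei were then compared with the 2913 nuclei of the claudin 16 gate, chosen by at least 2 Slc12a1 UMIs, at least 1 of Cldn16, Cldn19 or Tmem207, no Cldn10 and the same limits on Slc12a3 and Nos1. Sums per library and gate were tested in edgeR with the library as a block, leaving out the genes that chose the nuclei. Among all gated nuclei 6773 of 12128 mRNAs (55.8%) were called, led by genes such as Bnc2, Ctnna2, Gk and Dab2, all higher in the gated nuclei, which includes the proximal tubule transcripts of their low-Slc12a1 range. With at least 10 Slc12a1 UMIs in both gates, 1702 of 10135 (16.8%) were called, 965 higher (9.52%) and 737 lower (7.27%) in claudin 10 nuclei, and without scored doublets 1161 of 9479 (12.2%). Leaving out any 1 library left between 1503 and 1622.

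Tmem52b, Kcnj10 and Casr were among the genes lower in claudin 10 nuclei. Tmem52b, a membrane protein without a settled role, stood at 20.3 ± 6.04 CPM in claudin 10 and 403 ± 97.8 in claudin 16 nuclei (SD, n = 8 libraries, log2 difference -4.30 ± 0.087). Kcnj10, a basolateral potassium channel, stood at 7.64 ± 2.96 and 130 ± 23.3 (-4.13 ± 0.137). Casr, the calcium-sensing receptor that lowers salt and calcium uptake in this segment, stood at 331 ± 65.7 and 930 ± 101 (-1.499 ± 0.057). Each was lower in claudin 10 nuclei in all 8 libraries, a condition for naming leading genes between the gates. Nothing is drawn from that agreement. Of 16 calcium and magnesium genes, 10 were lower and 1 (Trpm7) higher, with a median of -0.434 against -0.013 for all mRNAs. Pth1r, the parathyroid hormone receptor, was at 86.0 against 200.3 (-1.21), Vdr, the vitamin D receptor, at -0.68 and Cnnm2, a protein of basolateral magnesium transport, at -0.51.

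Of 14 salt transport genes, 7 were lower and 3 higher in claudin 10 nuclei. Among those lower, Kcnj16, the partner of Kcnj10, and Fxyd2, a regulatory subunit of the sodium pump, differed by -0.63 and -0.55 on the log2 scale. Slc4a7 (0.49), a sodium bicarbonate cotransporter, and Kcnma1 (0.96) were among those higher, and Kcnj1 (0.02) was not called (edgeR adjusted p = 0.868) except without scored doublets (0.18, adjusted p = 0.00535). Of 13 NKCC2 regulation genes, Stk39 (0.25), the kinase SPAK that phosphorylates NKCC2, Wnk4 (0.26), its activator, Sorl1 and Cab39l were higher, and Wnk1 (450 against 1479, -1.69), Umod, Mal and Klhl3 lower. Umod stood at 2440 ± 811 in claudin 10 and 3137 ± 767 in claudin 16 nuclei (-0.39 ± 0.040).

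Genes higher in claudin 10 nuclei included Cacnb2, a subunit of voltage-gated calcium channels, at 955 ± 106 against 303 ± 35.1 CPM (log2 difference 1.66 ± 0.041), and Pla2g7, the platelet-activating factor acetylhydrolase, at 97.0 against 26.7 (1.87). Ptger3, the prostaglandin EP3 receptor, which opposes cyclic AMP in the TAL, stood at 1418 ± 331 against 693 ± 175 (1.04 ± 0.039). Over all gated nuclei it was -0.66, the opposite sign. Pik3c2g, Slco3a1, Pitpnc1 and Magi2 were also among the leading genes (1.49, 0.98, 0.86 and 0.74). The Iroquois factors split: Irx1 stood at 69.0 ± 5.69 against 25.1 ± 5.68 (1.45) and Irx2 was higher by 1.13, whereas Irx3 stood at 6.80 against 26.4 (-1.90). Leading genes lower in claudin 10 nuclei further included Rbfox1, a splicing factor (111 against 1251, -3.58), Jag1, a Notch ligand (-3.12), Cadps2 (-2.84), Zfp503 (-2.66), Col5a2 (-2.32), Enox1 (-2.15) and Lrmda (-1.45, and -2.64 without scored doublets).

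Other lists are given by gene, beside the 9.52% of all mRNAs that were higher and the 7.27% that were lower in claudin 10 nuclei, and nothing is drawn from their counts. Of 20 hormone receptor genes, 6 were higher (Ptger3, Igf1r, Ghr, Adrb1, Agtr1a, Nr3c1) and 4 lower (Pde10a, Gcgr, Nr3c2, Egfr). Of 14 tight junction genes, Magi3 and Marveld2 were higher and Magi1, Ocln, Tjp1 and Patj lower. Of 10 hypertonicity genes, 5 were higher (Slc6a6, Slc38a2, Slc6a12, Akr1b3, Slc5a3) and 1 lower (Tsc22d2). Of 12 core clock genes, Hlf, Arntl, Tef and Per2 were higher and Rora lower, of 17 transcription factors 8 were higher and 5 lower, and of 21 energy metabolism genes 3 were higher and 5 lower. All 11 proximal tubule genes were higher in claudin 10 nuclei (median 1.11). Slc34a1 differed by 1.19, and by 0.155 without scored doublets, and Lrp2 by 1.10 and 0.14. Of the leading genes, Dab2 (1.49) and Abcc2 (1.34) came to 0.095 and 0.212 without doublets and were no longer called (edgeR adjusted p = 0.462 and 0.0949), nor were Agtr1a and Tjp1.

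**Figure D5:**
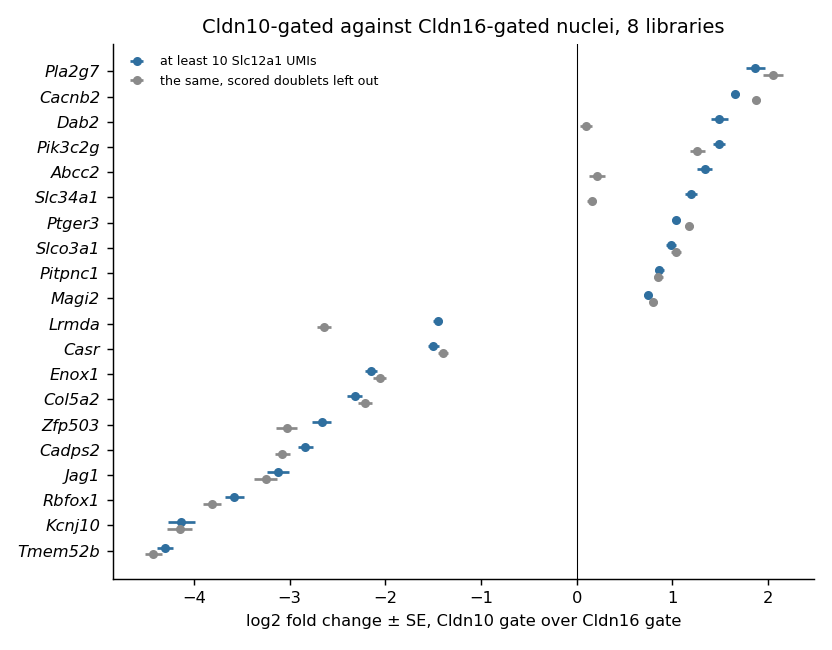
Log2 difference between claudin 10 and claudin 16 nuclei with at least 10 Slc12a1 UMIs (horizontal axis, estimate ± SE from edgeR) for 20 mRNAs (vertical axis), with all nuclei in blue and without scored doublets in grey. Tmem52b lies at -4.30 and Pla2g7 at 1.87; the proximal tubule genes Dab2 and Abcc2 move from 1.49 and 1.34 to near 0 without doublets.

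For lncRNAs, 901 of 1592 (56.6%) were called over all gated nuclei and 191 of 872 (21.9%) in high-Slc12a1 nuclei. D630024D03Rik (589 against 1647 CPM of lncRNA UMIs, log2 difference -1.53) and 9530036O11Rik (-1.49) led those lower in claudin 10 nuclei, and AI838599 (842 against 293, 1.499), 4921539H07Rik (1.75), Gm42397 (1.78) and Gm40999 (1.92) those higher, of which Gm42397 was at an edgeR adjusted p of 0.0412 without doublets.

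The Ctrl time effect differed between the claudin gates for few genes. Among all gated nuclei these were 2 of 12128 (0.0165%), Kcnma1 and Slc25a30, a mitochondrial carrier, and the count was 0 without either Ctrl ZT4 library and 4 without the first Ctrl ZT16 library. Kcnma1 stood at 135 and 184 CPM at ZT4 and 90.6 and 91.2 at ZT16 in the gated nuclei, and at 26.6 and 42.9 against 60.3 and 54.9 in the claudin 16 gate (log2 difference of changes -1.53, edgeR adjusted p = 0.0110). DESeq2 called 1 gene over all gated nuclei, with a positive difference, and so not Kcnma1. In high-Slc12a1 nuclei 4 of 10135 (0.0395%) were called, with Kcnma1 and Slc25a30 not among them. The Ctrl libraries of Kcnma1 in high-Slc12a1 nuclei, given above, were not lower at ZT16. Magi1 stood at 1242 and 1117 against 530 and 745 in claudin 10 and at 1913 and 1964 against 1326 and 1670 in claudin 16 nuclei (-0.52, edgeR adjusted p = 0.0243). Gpc5, a glypican, stood at 351 and 434 against 181 and 216 in claudin 10 nuclei, and at 463 and 516 against 445 and 451 in claudin 16 nuclei (-0.87, edgeR adjusted p = 0.00406). Etnk1, an ethanolamine kinase, was the third (0.59, edgeR adjusted p = 0.0243). Slc14a2, the urea transporter of thin limbs and collecting duct, was the last (-3.72, edgeR adjusted p = 0.00406), and its level in claudin 16 nuclei rested on the second Ctrl ZT16 library, with 699 against 110 in the first. That library also had the highest thin limb sum.

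The variation of the gated nuclei among themselves is given by gene. Setting Slc12a1 aside, the largest median residual variances over libraries (1 would be counting noise of the fitted model) were those of Erbb4 (47.9), a receptor of the epidermal growth factor family, Egf (40.1), Cyp7b1 (27.4), Ghr (25.6), the growth hormone receptor, Meis2 (21.7), Mecom (21.2) and Sgcz (21.1), with Frmpd4, Cacnb4 and Phactr1 at 16.6 to 17.8. Erbb4 and Ghr also differed between the ranges, at 9930 and 1493 CPM in high- and 180 and 5848 in low-Slc12a1 nuclei. In high-Slc12a1 nuclei Egf led (18.1, 14.5 to 23.5 in the libraries), followed by Sgcz (12.5), Magi2 (9.45), Slc34a1 (7.91), Ghr (7.82) and Dab2 (7.56). Scored doublets were kept here, and their part in these variances was not tested. Relative to all other nuclei, and among genes of at least 50 CPM in the gated nuclei, the leading genes were Ptger3 (2.25 times), Pcsk6 (2.14), Gm14002 (2.06), Slc2a13 (1.94), Tenm2 (1.90), Fa2h (1.80), Ryr2 (1.73), Cntnap5a (1.68), Erbb4 (1.67) and Gm45792 (1.66). Most of them stood higher still in the claudin 16 gate, Ptger3 at 293 CPM in gated and 492 in claudin 16 nuclei, Pcsk6 at 120 and 284, Gm14002 at 64.5 and 229, Slc2a13 at 162 and 359, Tenm2 at 306 and 856, Fa2h at 50.7 and 139, Ryr2 at 72.5 and 82.4 and Erbb4 at 2591 and 9346. Cntnap5a (252.5 and 14.3) and Gm45792 (353 and 12.7) stood lower there. The gated values include the low-Slc12a1 nuclei. With at least 10 Slc12a1 UMIs in both gates, Ptger3 stood at 1161 in claudin 10 and 551 in claudin 16 nuclei. In the same order Pcsk6 stood at 472 and 315, Slc2a13 at 596 and 397, and Tenm2 at 1207 and 956. Fa2h was at 194 and 155, Ryr2 at 153 and 90.7, Gm14002 at 262 and 258 and Erbb4 at 9930 and 10368. Most of them were then higher in claudin 10 nuclei, and Erbb4 was not. With the limit of 50 CPM applied in high-Slc12a1 nuclei, the ratio of these nuclei to all others reached 13.1 for Myo3a, 10.2 for Ptger3, 9.82 for Pla1a, 9.72 for Gm14002 and 9.70 for Pcsk6. These ratios describe the gate and were not tested.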

How the data were processed

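Single-nucleus RNA-seq libraries from the kidneys of 8 mice were used. The authors processed reads with Cell Ranger 7.1.0 on an mm10 reference. They deposited raw, unnormalized UMI counts for each gene in each called barcode. Versions are from the submitters' processing notes, which also name bcl2fastq 2.20 and Seurat 5. The sources used here do not state how intronic reads were treated. Biotypes came from GENCODE by gene identifier, and 0 columns of per-sample values were left unassigned. Promoter bases came from RefSeq tables of GRCm38.p6.

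Barcodes under 500 genes or 800 UMIs, or over 2% mitochondrial UMIs, were removed, which left 36548873 to 54500820 UMIs per library and 2966340 to 12625349 in gated nuclei. High-Slc12a1 nuclei held 1134545 to 2412554, so that weakly expressed genes and most lncRNAs rest on few counts. Library pairs shared 18 to 42 barcodes. Scrublet (scanpy 1.11.5, expected rate 8%) gave the doublet calls.

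UMIs were summed per library over the chosen nuclei, since nuclei are not replicates. The groups, from the submitters' labels, entered 1 quasi-likelihood model of edgeR 4.0.16 with TMM scaling, fitted for mRNAs and lncRNAs separately. The p-values were adjusted by Benjamini-Hochberg over the genes of a biotype in each contrast, and 0.05 was the limit. Genes needed at least 5 counts in both libraries of at least 1 group compared (in all 8 libraries of at least 1 gate between claudin gates). The 7 genes of the gate and mitochondrial genes were not tested, and certain genes that entered the fits and counts are not reported here. DESeq2 1.42.0 was the other tool. Shares were compared by exact permutation over libraries. The scripts were tested on simulated data. Intervals and p-values cover these libraries only, and counts of 2 replicates differed by more than sampling noise in every group (chi-square per degree of freedom 2.87 to 17.2).

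The members, gene lists and tests were chosen with earlier results of these data known. Genes were named by rule: gate and core clock genes, the 5 called mRNAs and 3 called lncRNAs of smallest p and without overlap of the groups, per contrast and direction, 10 and 5 between claudin gates with the same direction in all 8 libraries, up to 6 called genes of each list, the 12 most variable genes and the 10 with the largest ratio to other nuclei. For leading genes, lack of overlap and the same direction in all 8 libraries were thus conditions of the choice, and nothing is drawn from them. The ranges of Slc12a1 UMIs, and genes named for both genotypes, were chosen after the values were seen. Alternatives were DESeq2, other normalizations, filters and gates, equal numbers of nuclei, thinning to 2000 UMIs, removal of doublets, a replicate block and each library left out in turn.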

Additional observations from a re-analysis of the deposited data

Results flagged for a closer look

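The first Ctrl ZT4 library stood apart from the other Ctrl libraries in the mix of the claudin gates. Gated nuclei were 64.3% of both gates there, against 76.5%, 77.9% and 76.9% in the other 3 Ctrl libraries, and with at least 10 Slc12a1 UMIs 47.8% against 56.4%, 55.3% and 55.4%. In both cases its gap to the nearest library, as a share of the range, was above Dixon's limit for 4 values at 95%, which chance passes in about 1 of 20 groups.

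The time effect differed between genotypes by an interaction term in edgeR. For Arntl the difference of log2 changes was -3.26 over all gated nuclei, -4.77 in high-Slc12a1 nuclei and -2.84 in low-Slc12a1 nuclei. In low-Slc12a1 nuclei it was -2.13 for Rhobtb1 and -3.26 for Cry1.

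The Ctrl time effect differed between the claudin gates, tested in the same way, by -1.53 for Kcnma1 and 1.43 for Slc25a30 over all gated nuclei. With at least 10 Slc12a1 UMIs the differences were -0.52 for Magi1, 0.59 for Etnk1, -0.87 for Gpc5 and -3.72 for Slc14a2. Kcnma1 and Slc25a30 were not called there.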

How the results depend on the processing

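With 2 libraries a group, the counts of called genes depended on the tool, the filter and single libraries. Of 47 named results over all gated nuclei, 841 alternative values gave the same call in 704, a lost call in 137 and a turned direction in 0. In high-Slc12a1 nuclei 39 results gave 381 of 429, 48 and 0. All these results had been chosen as called, and those over all gated nuclei also without overlap, the difference between time effects apart. Their direction could therefore hardly turn, and nothing is drawn from the 0. Most lncRNAs and weakly expressed genes rest on few counts in high-Slc12a1 nuclei. Causes of the differences below were not tested, except that fewer or more genes enter a fit without a filter.

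For mRNAs over all gated nuclei, the counts for Ctrl time, cKOt time, genotype at ZT4, genotype at ZT16 and the difference between time effects were 19, 0, 52, 28 and 1 in edgeR, 112, 56, 144, 98 and 18 in DESeq2, and 279, 208, 272, 224 and 61 with no filter on low counts. The last was 4 with at least 2 Cldn10 UMIs, 2 without doublets, 2 with equal numbers of nuclei and 4 in low-Slc12a1 nuclei. In high-Slc12a1 nuclei Ctrl time gave 80, or 86 in DESeq2 and 104 without doublets, cKOt time 24, or 34 and 59, genotype at ZT16 18 without doublets, and the difference between time effects 4 in DESeq2 and 4 without doublets. For lncRNAs no filter gave 23, 25, 33, 27 and 6, and DESeq2 6 for cKOt time, 11 for genotype at ZT16 and 1 for the difference. With RLE size factors genotype at ZT16 gave 11, with at least 2 Cldn10 UMIs 14, and with mRNAs and lncRNAs in 1 fit 0, and genotype at ZT4 then gave 8, or 6 with equal numbers of nuclei. The lncRNAs of cKOt time were 1 with at least 2 Cldn10 UMIs, 3 without doublets and 1 with equal numbers of nuclei, and Ctrl time gave 4 in low-Slc12a1 nuclei. In high-Slc12a1 nuclei lncRNAs of cKOt time were 9, 5 in DESeq2 and 12 without doublets, of genotype at ZT4 5, 3 and 2, of genotype at ZT16 2, 1 and 4, and of Ctrl time 0 in DESeq2 and 1 without doublets.

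Between claudin gates, 6773 mRNAs fell to 1702 with at least 10 Slc12a1 UMIs, 1119 in DESeq2, 1161 without doublets and 996 with at least 2 claudin UMIs as well, and 901 lncRNAs to 191, 127, 126 and 91, and to 450 with nuclei thinned to 2000 UMIs. The Ctrl time effect differed between gates for 2 mRNAs, 1 in DESeq2, 4 without doublets, 5 with at least 2 claudin UMIs and 4 with at least 10 Slc12a1 UMIs. The share of all nuclei differed between genotypes by -0.343 percentage points for high-Slc12a1 nuclei and, after thinning to 2000 UMIs, by 0.0518 between genotypes and 1.71 between times, the share of both gates between genotypes by 2.61 with at least 10 and 1.605 with fewer than 10 Slc12a1 UMIs, and that between times by -0.965 with at least 10 and -0.325 with fewer than 10 Slc12a1 UMIs.

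Leaving out 1 library gave 4 to 22, 0 to 2, 18 to 62, 1 to 31 and 0 to 3 mRNAs in the order above over all gated nuclei, and 24 to 98, 4 to 41, 24 to 64, 7 to 47 and 2 to 6 in high-Slc12a1 nuclei. For lncRNAs it gave 0 to 13, 0 to 5, 3 to 16, 0 to 24 and 0 to 1, and 0 to 20, 1 to 23, 1 to 13, 0 to 15 and 0 to 9. Between gates it gave 6293 to 6721 and 1503 to 1622 mRNAs, 822 to 930 and 169 to 187 lncRNAs, and 0 to 4 mRNAs for the time effect. The shares differed by -0.272 to 3.12, 3.23 to 5.79, 2.68 to 7.23 and -0.0978 to 5.53 percentage points.

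Replicate numbers were shared by the groups, but deviations of samples with the same number correlated at -0.343 to 0.455, so the numbers were not taken as pairing over all groups. Between genotypes at the same time the correlation was positive, 0.455 at ZT4 and 0.404 at ZT16 for mRNAs, and 0.347 and 0.273 for lncRNAs. The genotype contrasts above were fitted without pairing, and what the libraries of a number share was not tested. With a replicate block Ctrl time gave 21 mRNAs, genotype at ZT4 34, genotype at ZT16 20 and the difference between time effects 2, and in high-Slc12a1 nuclei Ctrl time gave 100 mRNAs and cKOt time 30, with 8, 6 and 3 lncRNAs for cKOt time and genotype at ZT4 and ZT16. Deviations of the Ctrl groups correlated at -0.289, and a block with the Ctrl ZT16 numbers crossed, chosen after the data were seen, gave 37 mRNAs and 13 lncRNAs for Ctrl time.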

Other observations

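Of other genes called between times in high-Slc12a1 nuclei, Manf, Xbp1, Dnajb11 and Pdia3 were picked after their values were seen and are given by gene, with no statement on a group. Manf, a secreted factor of the endoplasmic reticulum, was at 39.7 and 38.2 CPM at ZT4 and 86.9 and 60.8 at ZT16 in Ctrl, and at 26.9 and 35.0 against 95.1 and 64.5 in cKOt (log2 change 0.94 in Ctrl, edgeR adjusted p = 0.120, and 1.36 in cKOt, adjusted p = 0.0397). Xbp1, a transcription factor of the unfolded protein response, was at 50.4 and 37.6 against 84.9 and 71.5 in Ctrl, and at 38.2 and 30.7 against 88.1 and 72.1 in cKOt (log2 change 0.87 in Ctrl, edgeR adjusted p = 0.0968, and 1.24 in cKOt, adjusted p = 0.0357). Dnajb11, a co-chaperone of BiP, was at 24.7 and 28.8 against 45.4 and 45.4 in Ctrl, and at 22.6 and 29.5 against 84.0 and 54.0 in cKOt (log2 change 0.74 in Ctrl, edgeR adjusted p = 0.323, and 1.40 in cKOt, adjusted p = 0.0357). Pdia3, a protein disulfide isomerase, was at 70.8 and 62.3 against 130 and 130 in Ctrl (log2 change 0.98, edgeR adjusted p = 0.0219), and at 92.0 and 70.1 against 172 and 137 in cKOt (0.95, edgeR adjusted p = 0.0474). Their shared direction, higher in both ZT16 libraries of each genotype, follows from the pick, and nothing is drawn from it. In cKOt the calls of Manf, Xbp1 and Dnajb11 were lost without the first cKOt ZT16 or either cKOt ZT4 library (edgeR adjusted p up to 0.371). The call of Pdia3 was lost in Ctrl without any of the 4 Ctrl libraries (edgeR adjusted p up to 0.223) and in cKOt without any of the 4 cKOt or either Ctrl ZT4 library (adjusted p up to 0.441). Actb, for comparison, was at 60.0 and 90.6 against 184 and 158 in Ctrl and at 72.0 and 80.5 against 176 and 138 in cKOt (log2 change 1.15, edgeR adjusted p = 0.0105, and 1.04, adjusted p = 0.0435).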
